A study of Arabidopsis thaliana with 6 samples.

Results

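The PHT1 genes and PHF1 were read from RNA sequencing of Arabidopsis thaliana seedlings as 10 genes chosen by identifier, PHT1-1 to PHT1-9 and PHF1, out of 32833 genes in the table. The names are spelled here as the table spells them, with a hyphen where RefSeq writes PHT1;1, and PHT1-8 follows the same pattern although the table gives it as PHT1;8. All 10 genes have the same start and end in the TAIR10.1 annotation. The seedlings were 8 days old and fell into 2 groups of 3 libraries, the mutant phod2 and the wild type (WT), which the study describes as biological replicates. The series concerns a plastid lipoyl synthase and phosphate homeostasis, and the phod2 libraries are also described by the name LIP1. What kind of change phod2 carries is not given, and neither is the phosphate supply of any library, although the series mentions high and low supply. The comparison of phod2 with WT thus asks how the uptake transporter transcripts differ in the mutant, at a supply that is not stated. Whether both genotypes had the same supply is not given either, so genotype and supply cannot be told apart here.

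PHT1 proteins are proton-coupled phosphate transporters of the plasma membrane, and most of them are known from the outer cell layers and hairs of roots. Phosphate shortage normally raises several of their transcripts through PHR1, a transcription factor that SPX proteins hold back while phosphate is plentiful. PHF1 is an endoplasmic reticulum protein that lets newly made PHT1 proteins leave for the cell surface. PHO2 and NLA mark PHT1 proteins for destruction by ubiquitin.

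Totals ran between 17319308 and 22417595 counts per library, and edgeR's quasi-likelihood test could be applied to 20169 genes after a low-count filter. LIP1P, the gene of the plastid lipoyl synthase, was at 13.7 ± 0.690 FPKM in phod2 and 22.1 ± 1.14 FPKM in WT (SD, n = 3 each). FPKM divide a gene's counts by its exon length and by the library total. The edgeR p-values weigh differences against the spread among the 3 libraries of a genotype, estimated with information shared over all tested genes. That spread was small, with a common biological coefficient of variation of 2.83%.

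The PHT1 genes hold near-identical copies, which decides how well reads can be told apart. PHT1-6, PHT1-1, PHT1-3 and PHT1-2 lie next to each other on chromosome 5 within 24375 bases, with no other gene of the table among them. The coding sequences of PHT1-1 and PHT1-2 are equally long, at 1575 bases, and differ at 36 of them, an identity of 97.7%. PHT1-3 is 89.5% identical to PHT1-1 in its coding sequence, and PHT1-4, on chromosome 2, is 69.8% identical. Only coding bases were searched for the place where a read could best separate PHT1-1 and PHT1-2. The stretch of 60 coding bases with the most differences between them is shown. It lies at chr5:17400077-17400136 (minus strand) in PHT1-1, at chr5:17417580-17417639 (plus strand) in PHT1-2 and at chr5:17411005-17411064 (plus strand) in PHT1-3, in TAIR10.1 coordinates. Capitals mark the bases that differ from PHT1-1, 10 in PHT1-2 and 9 in PHT1-3.
PHT1-1: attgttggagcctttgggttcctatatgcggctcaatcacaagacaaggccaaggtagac
PHT1-2: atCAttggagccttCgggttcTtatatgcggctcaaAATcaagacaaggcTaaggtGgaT
PHT1-3: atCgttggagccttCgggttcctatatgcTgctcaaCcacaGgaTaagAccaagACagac

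Elsewhere PHT1-1 and PHT1-2 run together for long stretches, the longest being 404 identical coding bases, from base 910 to base 1313. Of the 1913 possible stretches of 100 bases in the longest RefSeq transcript of PHT1-1, 582 (30.4%) also occur in PHT1-2. Of the 1770 such stretches in PHT1-2, the same 582 make up 32.9%, and 1188 occur in no transcript of another gene. For PHT1-3, PHT1-4, PHT1-5, PHT1-6, PHT1-7, PHT1-8, PHT1-9 and PHF1, no stretch of 100 bases was shared with a transcript of another gene. With stretches of 50 bases, 42.4% of those in PHT1-1 and 45.4% of those in PHT1-2 were shared, as were 20 of 1517 (1.32%) in PHT1-3, and none in the other 7 genes. The values of PHT1-1 and PHT1-2, and to a smaller extent PHT1-3, are therefore uncertain where a read matches more than 1 of them, since the sources used here do not give the read length or the treatment of such reads. No other gene of the table overlaps any of the 10 genes.

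**Figure D1:**
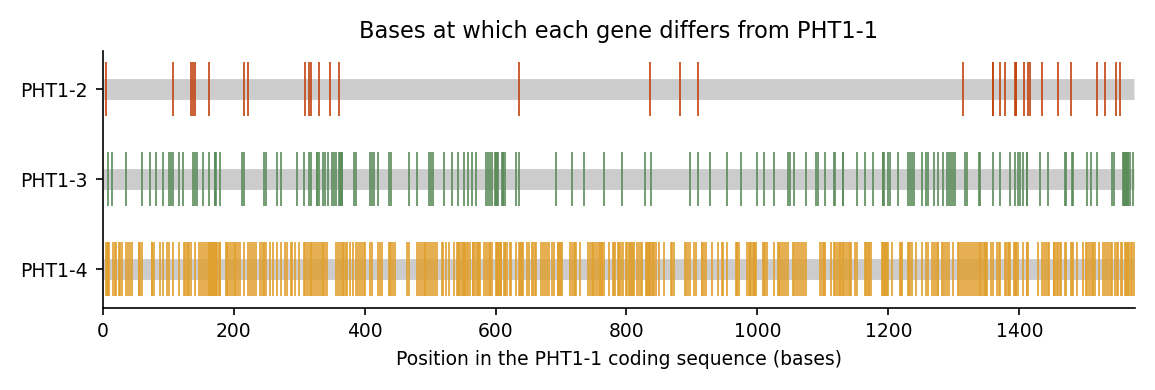
Positions along the coding sequence of PHT1-1 (bases, horizontal axis) at which PHT1-2, PHT1-3 and PHT1-4 carry another base or a gap, 1 coloured line per position. PHT1-2 differs at 36 positions, with 404 bases in 1 run free of a difference, while differences from PHT1-3 and PHT1-4 run along the whole sequence.

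Of the 10 genes, 6 passed the low-count filter and were tested. PHT1-2 passed it only through its WT libraries and PHT1-5 only through its phod2 libraries, in each case the group with the higher level. Among the 6 tested genes PHT1-4 and PHF1 rose in phod2, PHT1-1 and PHT1-2 fell, and PHT1-5 and PHT1-9 did not pass the test. Passing the test means an adjusted p of 0.05 or less over all tested genes, which 45.5% of all tested genes did. Of all tested genes 20.9% rose and 24.6% fell. PHT1-4, PHT1-1 and PHT1-2 also changed at least 2-fold, the further condition stated by the study. This was met by 7.51% of all tested genes, with 1.79% higher and 5.72% lower in phod2. The median log2 fold change of the 6 tested genes was -0.01, beside 0.01 over all tested genes.

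PHT1-1 (AT5G43350, chromosome 5, 17399769 to 17402158, minus strand, 3 exons), one of the main phosphate uptake transporters of the root, had the highest level of the family in both genotypes and was lower in phod2. Its counts were 662, 745 and 829 in phod2 replicates 1 to 3, against 1849, 1416 and 1755 in WT replicates 1 to 3. These correspond to 18.28, 19.11 and 19.67 FPKM in phod2 and to 40.99, 40.64 and 40.31 FPKM in WT. The 3 phod2 libraries lay close together and all below the WT libraries, as the libraries of the 2 genotypes did for 54.1% of all tested genes in one direction or the other. The level was 0.455-fold in phod2 relative to WT (log2 fold change -1.14 ± 0.05, SE, edgeR adjusted p = 2.2e-30).

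PHT1-4 (AT2G38940, chromosome 2, 16257157 to 16260253, plus strand, 2 exons), the other main uptake transporter of the root, moved the opposite way. Its counts were 410, 520 and 530 in phod2, against 205, 173 and 175 in WT, or 11.40, 13.43 and 12.65 FPKM in phod2 and 4.57, 5.0 and 4.05 FPKM in WT. Each phod2 library was thus above each WT library. The level was 2.69-fold in phod2 relative to WT (log2 fold change 1.43 ± 0.09, SE, edgeR adjusted p = 1.2e-21).

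PHT1-1 and PHT1-4 together made up nearly all of the family's level, and their balance differed between the genotypes. PHT1-4 took 37.4% to 40.3% of the summed FPKM of the 9 PHT1 genes in phod2 and 8.91% to 10.8% in WT. PHT1-1 took 57.3% to 60.01% in phod2 and 87.5% to 88.7% in WT. The log2 ratio of PHT1-4 to PHT1-1 within a library was -0.68, -0.51 and -0.64 in phod2 and -3.16, -3.02 and -3.32 in WT. Its mean was -0.61 ± 0.09 in phod2 and -3.17 ± 0.15 in WT (SD, n = 3 each), a difference of 2.56 on the log2 scale. The exact permutation test gave p = 0.1 (2-sided), the smallest value that 3 libraries against 3 can give.

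The summed level of the family was lower in each phod2 library than in each WT library. It was 30.5, 33.3 and 33.1 FPKM in phod2 and 46.6, 46.4 and 45.4 FPKM in WT, or 32.3 ± 1.60 against 46.2 ± 0.639 FPKM (SD, n = 3 each). The ratio of the means was 0.700, and the exact permutation test again gave its smallest possible p = 0.1 (2-sided), which cannot pass 0.05. Without PHT1-1 the sum went the other way, at 13.3 ± 1.03 FPKM in phod2 and 5.51 ± 0.357 FPKM in WT, so the direction of the sum rests on PHT1-1.

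**Figure D2:**
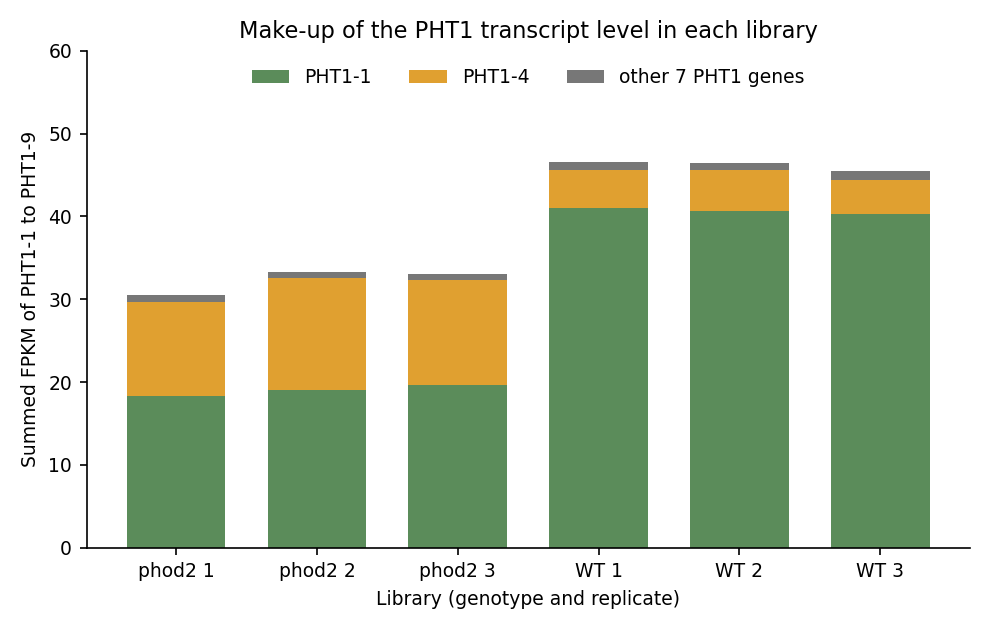
Summed FPKM of PHT1-1 to PHT1-9 in each library (vertical axis; libraries by genotype and replicate along the horizontal axis), split into PHT1-1, PHT1-4 and the other 7 PHT1 genes. The phod2 bars are lower than the WT bars, and the PHT1-4 part takes 37.4% to 40.3% of each phod2 bar and 8.91% to 10.8% of each WT bar.

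PHT1-2 (AT5G43370, chromosome 5, 17415698 to 17417972, plus strand), the near-identical neighbour of PHT1-1 and also known as a root transporter, had few counts. They were 5, 1 and 9 in phod2 and 21, 13 and 25 in WT, or 0.15, 0.03 and 0.23 FPKM in phod2 against 0.50, 0.40 and 0.62 FPKM in WT. All phod2 libraries were below all WT libraries. PHT1-2 passed the low-count filter only through its WT libraries, so the filter itself favoured a difference in this direction. The log2 fold change was -1.92 ± 0.45 (SE, edgeR adjusted p = 0.00033), and -1.44 without phod2 replicate 2 and -2.57 without phod2 replicate 3, so the size of the change rests on single libraries with 1 to 9 counts. In a test against a 2-fold change PHT1-2 did not pass (adjusted p = 0.159).

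The counts of PHT1-1 and PHT1-2 were also read as 1 sum, because reads of their shared stretches may have gone to either. Together with PHT1-3 they held 667, 746 and 838 counts in phod2 and 1870, 1429 and 1780 in WT. The sum had a log2 fold change of -1.14 ± 0.04 (SE, edgeR adjusted p = 1.3e-30), the same to 2 decimals as PHT1-1 alone. Over the 3 libraries of a genotype, PHT1-1 held 2236 counts in phod2 and 5020 in WT, and PHT1-2 held 15 and 59. The sum therefore had to lie close to PHT1-1, and it cannot show how shared reads were assigned or whether they were left out. The log2 ratio of PHT1-1 to PHT1-2 within a library averaged 7.60 ± 1.61 in phod2 and 6.35 ± 0.317 in WT (SD, n = 3 each). This difference of 1.25 did not pass the exact permutation test (p = 0.2, 2-sided, smallest possible 0.1), and it was 0.33 without phod2 replicate 2, whose PHT1-2 value is 1 count.

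PHT1-3 (AT5G43360, 17409524 to 17411214, plus strand), a further transporter of the chromosome 5 cluster, and PHT1-6 (AT5G43340, 17393598 to 17395148, minus strand), known from anthers and pollen, were at 0 counts in all 6 libraries. For a count of 0, 3 counts were taken as an approximate and not a certain upper limit. This is 0.0855 to 0.111 FPKM per library for PHT1-3 and 0.0863 to 0.112 FPKM for PHT1-6. Such limits cover counting error only. The anther and pollen markers A9 and AT59 were low as well, A9 at 0 in all libraries and AT59 at 0.137 ± 0.129 FPKM in phod2 and 0.06 ± 0.0557 FPKM in WT (SD, n = 3 each). The third gene of that list, TPD1, was at 18.9 ± 0.955 FPKM in phod2 and 16.1 ± 0.631 FPKM in WT.

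PHT1-5 (AT2G32830, chromosome 2, 13927606 to 13929763, minus strand), which is known to move phosphate between source and sink organs, had 11, 12 and 15 counts in phod2 and 10, 4 and 10 in WT. Its FPKM of 0.32, 0.33 and 0.38 in phod2 lay above the 0.24, 0.12 and 0.25 in WT. PHT1-5 passed the low-count filter only through its phod2 libraries, so the filter itself favoured a difference in this direction. The log2 fold change of 0.69 ± 0.43 did not pass the test (SE, edgeR adjusted p = 0.19).

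PHT1-8 (AT1G20860, chromosome 1, 7253998 to 7258952) and PHT1-9 (AT1G76430, chromosome 1, 28678935 to 28682062) form a pair known for uptake and for transfer of phosphate to the shoot, and both lie on the minus strand. PHT1-7 (AT3G54700, chromosome 3, 20248214 to 20250948, minus strand) had 80.7% coding identity with PHT1-4, the highest with any other PHT1 gene. PHT1-9 had 10, 10 and 3 counts in phod2 and 12, 10 and 9 in WT (log2 fold change -0.39 ± 0.47, SE, edgeR adjusted p = 0.53). The groups overlapped, and without phod2 replicate 3 the value was 0.043. PHT1-8 had 1, 1 and 2 counts in phod2 and 1, 0 and 0 in WT. PHT1-7 had 0, 6 and 2 counts in phod2 and 0 in each WT library. Neither passed the low-count filter, and no fold is given for them.

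PHF1 (AT3G52190, chromosome 3, 19353867 to 19357261, minus strand, 10 exons) rose by a smaller amount than PHT1-4. Its counts were 283, 327 and 344 in phod2 and 294, 228 and 227 in WT, or 8.75, 9.39 and 9.13 FPKM in phod2 against 7.29, 7.32 and 5.83 FPKM in WT. In FPKM the phod2 libraries were all above the WT libraries, while the counts overlapped. The level was 1.30-fold in phod2 relative to WT (log2 fold change 0.38 ± 0.09, SE, edgeR adjusted p = 0.00036), and the log2 value was 0.27 without WT replicate 3, the lowest of the WT libraries.

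**Figure D3:**
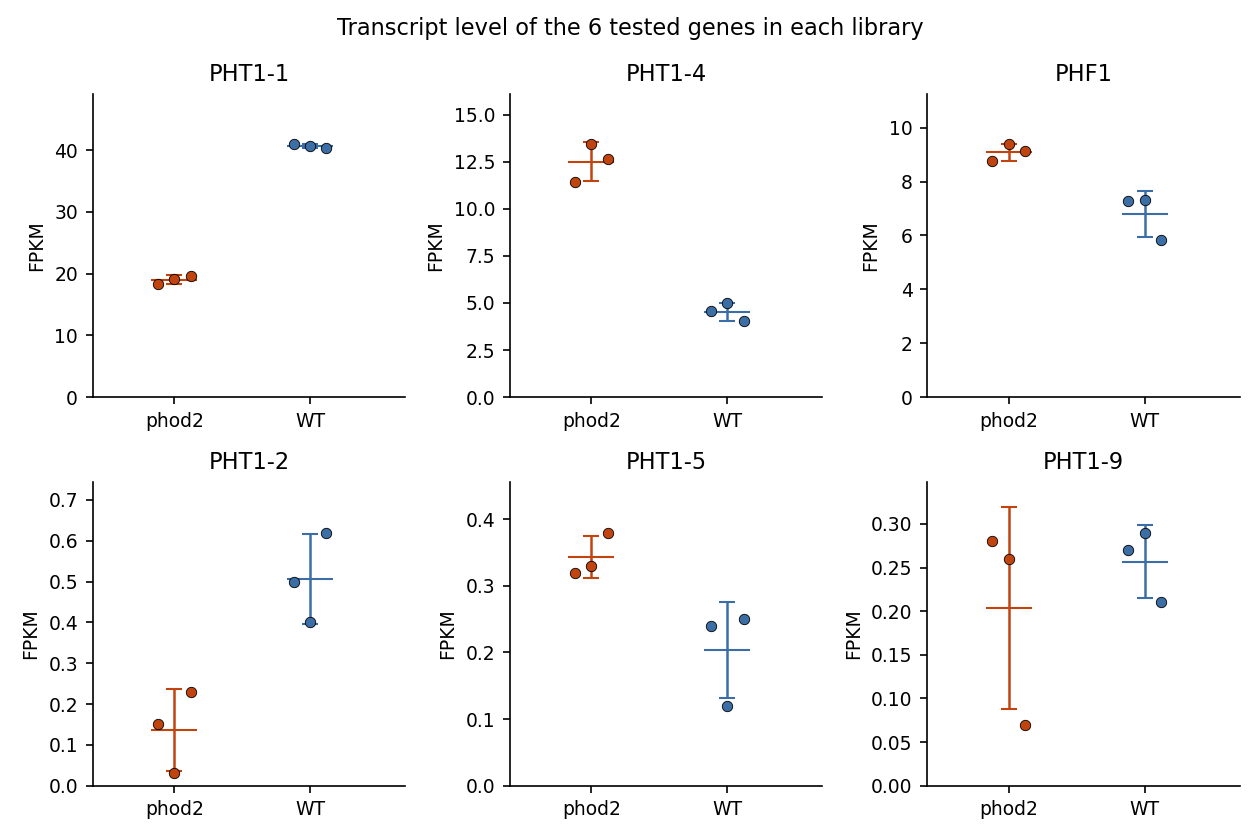
FPKM of the 6 tested genes (vertical axes, each from 0) in the 3 phod2 and 3 WT libraries, with 1 point per library and the mean ± SD as horizontal and vertical lines. PHT1-4, PHF1 and PHT1-5 are higher in every phod2 library than in every WT library, PHT1-1 and PHT1-2 are lower, and PHT1-9 overlaps. Of all tested genes, 54.1% had no overlap between the genotypes, in one direction or the other. PHT1-5 did not pass the test.

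In order of FPKM, the phod2 libraries ran PHT1-1, PHT1-4, PHF1 and PHT1-5, each without overlap with the next, followed by PHT1-9, PHT1-2 and PHT1-7, whose ranges overlapped. In WT the order was PHT1-1, PHF1, PHT1-4, PHT1-2 and PHT1-9, again without overlap between neighbours, and then PHT1-5, which overlapped with PHT1-9. PHF1 therefore lay below PHT1-4 in phod2 and above it in WT. PHT1-2, PHT1-3 and PHT1-5 to PHT1-9 were at 0.62 FPKM or less in every library.

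Genes known from PHT1 control or, more widely, from phosphate starvation or root hairs were read from a list of 29, all tested. Of these, 9 were higher in phod2 past the test, 8 were lower and 12 missed it, with a median log2 fold change of 0.01, beside 20.9% higher and 24.6% lower among all tested genes. The transcription factor PHR1 was at 28.9 ± 0.546 FPKM in phod2 and 28.5 ± 1.58 FPKM in WT (SD, n = 3 each), a log2 fold change of -0.02 ± 0.05 (SE, edgeR adjusted p = 0.81). SPX1, which binds PHR1 and is itself a target of it, was at 47.23, 43.22 and 45.95 FPKM in phod2 and 5.29, 5.46 and 4.87 FPKM in WT. Its log2 fold change of 3.09 ± 0.07 (SE) was larger than that of any PHT1 gene tested. SPX2 and SPX3 rose as well, with log2 fold changes of 0.81 ± 0.08 and 2.68 ± 0.45, and SPX4 fell (-0.24 ± 0.09).

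The non-coding RNAs AT4 and IPS1, which bind the microRNA that cuts the PHO2 transcript, rose. AT4 was at 53.07, 55.86 and 56.70 FPKM in phod2 and 8.67, 10.36 and 7.36 FPKM in WT, a log2 fold change of 2.62 ± 0.08 (SE). IPS1 was at 8.51, 5.81 and 10.13 FPKM in phod2 and 0.82, 0.96 and 0.68 FPKM in WT, a log2 fold change of 3.27 ± 0.27 (SE). PHO2, the ubiquitin conjugase acting on PHT1 proteins, fell by 0.18 ± 0.03 on the log2 scale (SE, edgeR adjusted p = 4.4e-06), with 29.86 to 32.05 FPKM in phod2 and 33.30 to 34.34 FPKM in WT. The ligase gene NLA did not pass the test, at -0.04 ± 0.08 (SE, edgeR adjusted p = 0.76).

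Among transcription factors known from PHT1 promoters or from phosphate starvation, WRKY75 fell to 1.44, 1.08 and 1.53 FPKM in phod2, against 4.46, 4.85 and 3.77 FPKM in WT (log2 fold change -1.71 ± 0.22, SE). WRKY6, which is known to repress PHO1, fell as well (-0.44 ± 0.08), as did BHLH32 (-0.58 ± 0.09). ETC1, a small MYB protein that promotes root hair formation, rose at a low level, with 1.37, 2.18 and 2.01 FPKM in phod2 and 0.52, 1.08 and 0.70 FPKM in WT (log2 fold change 1.27 ± 0.32, SE, edgeR adjusted p = 0.00076). AT1G15130, annotated as the vacuolar sorting protein BRO1, fell by 0.12 ± 0.04 on the log2 scale. The other list genes past the test were MYB62, SNX1 and AT2G20400, which rose, and WRKY42 and CKB3, which fell, with log2 fold changes between -0.50 and 1.16.

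**Figure D4:**
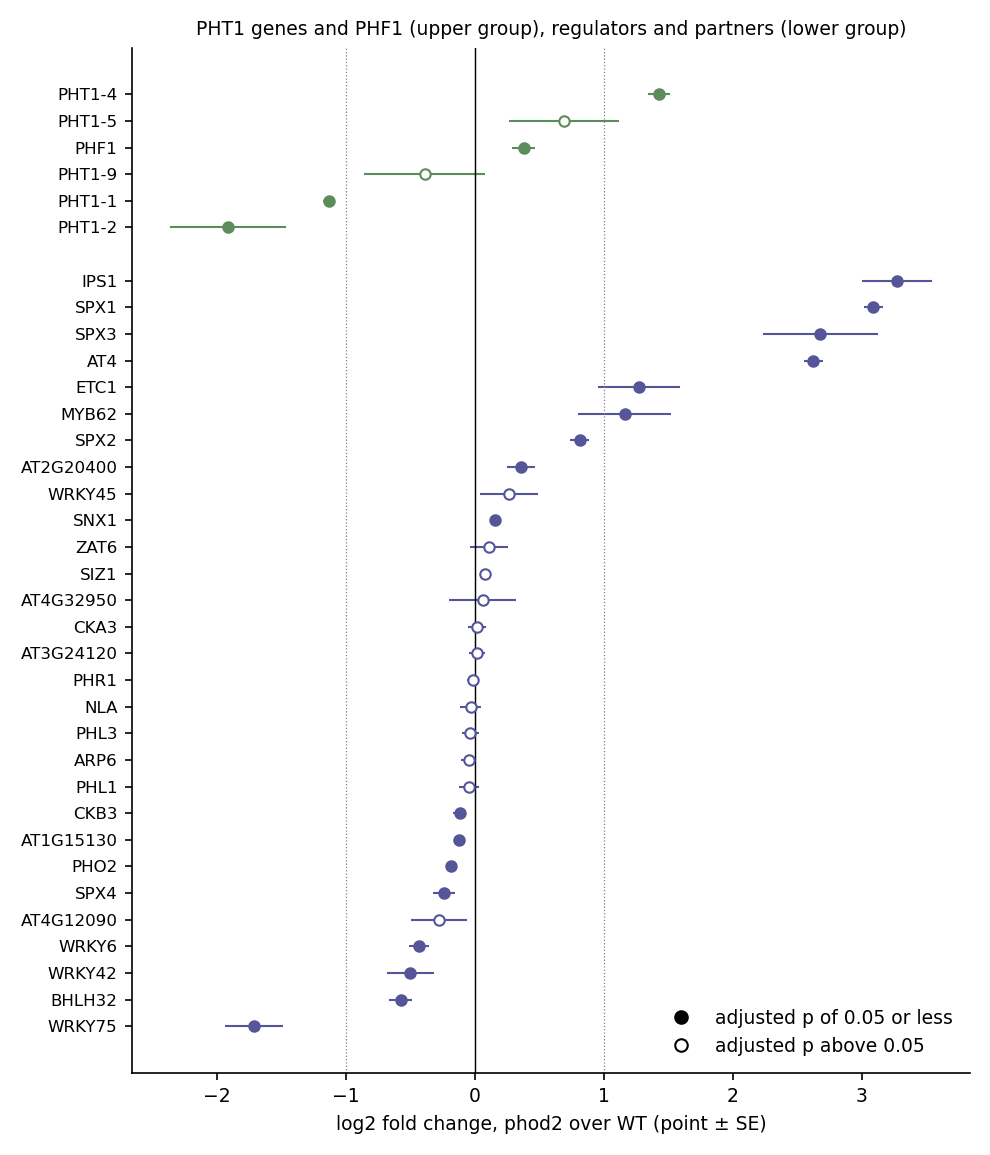
Log2 fold change of phod2 over WT with its SE (horizontal axis) for the 6 tested PHT1 and PHF1 genes (upper group) and the 29 regulators and partners (lower group), with filled points for an adjusted p of 0.05 or less and dotted lines at 2-fold. PHT1-4 lies right of the 2-fold line and PHT1-1 left of it, while PHR1 lies at -0.02 and SPX1 at 3.09.

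PHR1 is known to bind the 8-base element GNATATNC, which reads the same on both strands. It was searched in the 1000 bases before each annotated gene start and the 50 bases after it, and 8 of the 10 genes held a match, as did 20.8% of 32546 such windows of annotated genes. PHT1-9 and PHF1 held none. In the nearer window of 250 bases before to 50 after the start, PHT1-2, PHT1-4 and PHT1-7 held a match, 3 of the 10 genes, as did 6.23% of all windows. PHT1-1, PHT1-2 and PHT1-7 held 2 matches each in the longer window. The matches of PHT1-1 and PHT1-4, the genes that moved apart, are shown with 1 match each of PHT1-2, PHT1-3 and PHT1-7, their nearest copies. For PHT1-2 and PHT1-7 it is the match nearer to the start, and their further matches, GTATATAC at 569 bases and GAATATTC at 322 bases before the start, are not printed in their context. Each is from TAIR10.1, on the strand of its gene, with the match in capitals and 20 bases on each side. They lie at chr5:17402899-17402964 (minus, 786 bases before the start) for PHT1-1, where 2 matches share the stretch, and at chr2:16257130-16257177 (plus, 7 bases before the start) for PHT1-4. The others lie at chr3:20251045-20251092 (minus, 124 bases before the start) for PHT1-7, chr5:17415636-17415683 (plus, 42 bases) for PHT1-2 and chr5:17409111-17409158 (plus, 393 bases) for PHT1-3.
PHT1-1: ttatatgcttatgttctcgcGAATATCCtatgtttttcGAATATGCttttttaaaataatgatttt
PHT1-4: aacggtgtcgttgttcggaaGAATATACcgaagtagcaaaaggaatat
PHT1-7: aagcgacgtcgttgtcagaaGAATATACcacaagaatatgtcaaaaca
PHT1-2: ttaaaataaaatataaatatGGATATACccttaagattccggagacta
PHT1-3: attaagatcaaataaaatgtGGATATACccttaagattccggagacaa

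PHT1-4, which rose, and PHT1-1 and PHT1-2, which fell, thus all held at least 1 match within 1000 bases. The matches shown for PHT1-2 and PHT1-3 have the same letters, GGATATAC, and those shown for PHT1-4 and PHT1-7 are both GAATATAC, unlike the further matches of PHT1-2 and PHT1-7. The RefSeq models of PHT1-3 and PHT1-6 hold only coding bases, so their annotated starts are the first coding base. A match describes the letters and not binding.

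Most markers of root hairs and endodermis were lower in phod2 in the same libraries. Of all tested genes 20.9% were higher and 24.6% lower past the test, and 1.79% were higher and 5.72% lower by 2-fold or more. The 12 root hair markers all fell, and 10 of these did so by 2-fold or more, with a median log2 fold change of -1.76, and their summed level was 25.6 to 27.4 FPKM in phod2 and 64.6 to 70.5 FPKM in WT. In the endodermis list of 10, 8 genes fell, 6 of them by 2-fold or more (median -1.91). The list's summed level was 46.9 to 49.6 FPKM in phod2 and 112.0 to 121.9 FPKM in WT. The lowest adjusted p in these lists were those of RBOHC (-1.65 ± 0.11) and PRP3 (-1.53 ± 0.10) among root hair genes, and of CASP1 (-2.0 ± 0.08) and PER64 (-1.86 ± 0.08) in the endodermis. The other 2 endodermis genes had positive values that missed the threshold. ESB1 was at 0.45, 0.51 and 0.63 FPKM in phod2 and 0.41, 0.23 and 0.32 FPKM in WT (0.65 ± 0.36, edgeR adjusted p = 0.14), without overlap, and SCR had a log2 fold change of 0.10 ± 0.05 (edgeR adjusted p = 0.12). No marker of either list was at 0 in all libraries.

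The medians of the other marker lists were nearer to 0. Of 3 genes of the non-hair epidermis, GL2 and WER fell and CPC, at 0.20 ± 0.21, missed the threshold (median -0.33, summed level 8.90 to 10.3 FPKM in phod2 and 11.2 to 12.3 FPKM in WT). Of 5 genes of the stele and of xylem loading, PHO1 and NRT1.5 fell and 3 missed the threshold (median -0.06, summed level 95.8 to 101.9 FPKM in phod2 and 169.8 to 171.4 FPKM in WT). Among 7 mesophyll genes, 2 were higher and 2 lower past the threshold, near the shares of all tested genes (median -0.01, summed level 29814 to 30045 FPKM in phod2 and 29385 to 29816 FPKM in WT). PHT1-1 fell by less than the median of the root hair and endodermis markers, and PHT1-4 rose. The part of these markers in the PHT1 values was not tested. In RNA of whole samples, fewer cells of a type and less RNA per cell cannot be told apart.

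The genes with profiles most like PHT1-1 over the 6 libraries were XTH16, FLA9 and AT2G32990, out of 13316 tested genes with a mean of at least 5 FPKM. Likeness was the root mean square difference of log2(FPKM + 1) after centring, which was 0.0247 for XTH16, a cell wall enzyme gene, 0.0249 for FLA9, an arabinogalactan-type protein gene, and 0.0328 for AT2G32990, annotated as an endoglucanase. All 3 fell in phod2, by 1.15, 1.13 and 1.21 on the log2 scale. For PHT1-4 the nearest were the auxin synthesis gene TAA1 (0.0656), CAF1-9 (0.0825) and the nicotianamine synthase gene NAS4 (0.102), with log2 fold changes of 1.32, 1.26 and 1.39. With 2 genotypes and 3 libraries each, such likeness reflects mainly a similar difference between genotypes.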

How the data were processed

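The deposited table holds whole-number counts per gene and FPKM per library, per the file headers, and exonic gene sizes in bases. The deposited FPKM equal the counts divided by exonic size and library total to within 0.005, the rounding of the file. Aligner, counting program, read length and strand use were not stated in the labels or file headers. A mouse build, mm10, stands in the submitters' processing notes and cannot apply to these identifiers. Of 32548 identifiers found in TAIR10.1, 99.9% had the same start and end there.

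Groups and replicate numbers came from the sample titles. Counts were tested with edgeR 4.0.16 (filterByExpr, TMM, glmQLFit and glmQLFTest, 2-sided, genotype as the only term) in R 4.3.3 over all 20169 genes that passed the filter, with Benjamini-Hochberg adjustment over them. Each SE was obtained as |log2 fold change| / sqrt(F), with F from the quasi-likelihood test. On simulated counts with 20018 genes tested, 66, 67 and 66 genes were changed 1.5-fold, 2-fold and 4-fold in phod2 against WT. The edgeR step recovered 78.8%, 91.0% and 100% of them, and 5.29% of the genes past the threshold were unchanged. Far fewer genes were changed there than the 45.5% that passed in the real data, so these shares do not carry over to the real data. Summed FPKM and log2 ratios used FPKM recomputed from counts without rounding, and were compared by exact permutation of the library labels.

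Sequences came from the TAIR10.1 genome with RefSeq gene models, using the longest transcript of each gene. Coding sequences were aligned end to end with Biopython 1.88, and stretches of 50 and 100 bases of each transcript were looked up on both strands of all RefSeq transcripts. Alternatives were DESeq2 1.42.0, limma 3.58.1 on log2(FPKM + 1) and log2(FPKM + 0.1), other scalings and filters, robust shrinkage, glmTreat, a replicate block and leaving out each library. The genes and lists were chosen with earlier results of these data known. All 10 genes are named, with the listed regulators of lowest adjusted p, up to 6 in each direction, PHR1, PHO2, NLA, SPX1 and WRKY75, at most 2 genes of a marker list, and the 3 genes nearest in profile to PHT1-1 and to PHT1-4. MYB62, SNX1, AT2G20400, WRKY42, CKB3, ESB1, SCR, CPC, A9, AT59 and TPD1 were named after their values were seen.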

Additional observations from a re-analysis of the deposited data

How the results depend on the processing

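Of 63 refits of the 4 genes past the test, 61 kept the direction and the side of the threshold. In the test against 2-fold (glmTreat) PHF1 (0.38, adjusted p = 1) and PHT1-2 (-1.92, adjusted p = 0.159) did not pass, and 2 of the genes passed. The log2 fold change of PHT1-1 stayed between -1.16 and -1.06 and that of PHT1-4 between 1.29 and 1.49 over 16 alternatives each, and that of PHT1-2 between -2.57 and -0.41 over 15, the smallest by limma on log2(FPKM + 1), whose pseudocount shrinks low genes. A minimum of 1 FPKM in 3 libraries left PHT1-1, PHT1-4 and PHF1 to test. Without a low-count filter PHT1-7 had an adjusted p of 0.0396 in the edgeR test, with 0, 6 and 2 counts in phod2 and 0 in each WT library. It entered that fit only through these few phod2 reads, so this p is not read as support for a change. Leaving out 1 library at a time put PHT1-9 between -0.68 and 0.043, with 0.043 without phod2 replicate 3. The difference in summed FPKM was 7.77 without PHT1-1, against -13.9 with it.

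Over all genes, glmTreat called 147 higher and 596 lower, and limma on log2(FPKM + 1) called 131 higher and 488 lower at 2-fold, against 362 and 1153 in the edgeR test. The replicate numbers did not pair the libraries (correlations of same-numbered deviations -0.0178, 0.0120 and -0.00512). With the replicate block the log2 fold changes were -1.14 for PHT1-1, 1.42 for PHT1-4, -1.92 for PHT1-2 and 0.38 for PHF1, and 364 genes were higher and 1153 lower at 2-fold. PHT1-2, PHT1-5, PHT1-7, PHT1-8 and PHT1-9 had at most 25 counts in any library.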
